A study of Mus musculus with 72 samples.

Results

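The genes described here encode the machinery that carries signals from G protein-coupled receptors to cyclic nucleotides in Pet1 neurons of the adult mouse dorsal raphe (DR): heterotrimeric G protein subunits, regulators of G protein signalling (RGS), adenylyl cyclases and cyclic nucleotide phosphodiesterases. Members were found by gene symbol, from Gna, Gnb, Gng, Rgs, Adcy and Pde followed by the characters that name a subunit or isoform, and each had to have a UMI (unique molecular identifier, 1 counted RNA molecule) in at least 10 of the 2350 droplet-sorted cells. That table has 17231 genes, of which 82 matched by symbol and 79 met the cell minimum. They were 13 G alpha, 5 G beta and 10 G gamma genes, 19 RGS genes, 9 adenylyl cyclases and 23 phosphodiesterase genes. The 3 that did not were Rgs22 (9 cells), Pde4c (8 cells) and Adcy4 (4 cells), and the members nearest the minimum on its upper side were Rgs9bp with 13 cells and Rgs5 with 15. Among the members, 3 symbols taken in by their letters name partner proteins instead of enzymes or RGS proteins (Rgs7bp, Rgs9bp and Pde4dip), and these were left out of the family sums. Other members kept in the phosphodiesterase sums are also not catalytic enzymes of cyclic nucleotides: Pde6d is a prenyl-binding chaperone with 11% of the family's UMIs, Pde6g and Pde6h are inhibitory subunits, and Pde12 acts on oligoadenylates and RNA. All 79 members also had a row in the table of manually sorted cells.

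The droplet (10X Genomics) table holds EGFP-marked Pet1 neurons from 2 pooled runs, one from Pet1::Flpe+/-; hM3Dq+/+ animals at a mean age of 65.5 days, in which no Cre was present and the hM3Dq receptor was therefore not expressed, and one from En1::cre+/-;Pet1::Flpe+/-;RC::FrePe+/- animals averaging 59 days of age, in which only Pet1 neurons of the En1 lineage are marked. The Pet1 driver is a Fev transgene, and the deposited cells had been chosen for Fev, for many detected genes and against glial profiles. Barcodes carry 1 of 2 endings that no label ties to a run, and they are called barcode set 1 (869 cells) and barcode set 2 (1481 cells). No barcode sequence occurred in both sets. The second table holds 70 hand-picked cells in 8 groups, all Pet1::Flpe+/-;RC::FrePe+/- and all with 1 Cre allele besides: Sert::cre+/- cells of the dorsolateral (10 cells), dorsomedial (9) and ventromedial (8) DR at postnatal days 63 and 90 and of the caudal DR (6) at day 63, P2ry1::cre+/- cells of the caudal DR (10, days 62 to 74), Npy2r::cre+/- cells of the caudal (10) and rostral (9) DR at days 77 and 87, and Crh::cre+/- cells of the rostral DR (8, days 83 and 119). In each, Cre and Flpe together mark the cells, so a group is the neurons in which both drivers have been active at some time. The labels name no animals, so each group counted as 1 sample, and the values below are descriptions with no test between groups.

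In G protein signalling, an activated receptor exchanges GTP for GDP on a G alpha subunit, which parts from the beta-gamma dimer. G alpha s and the olfactory form G alpha olf stimulate adenylyl cyclases, G alpha i, o and z restrain them, and G alpha q, 11 and 14 activate phospholipase C beta. RGS proteins speed up GTP hydrolysis and so end the signal, and phosphodiesterases break down the cyclic AMP and cyclic GMP that result. Serotonin neurons are slowed by their own 5-HT1A autoreceptors through G alpha i/o and beta-gamma gated GIRK potassium channels.

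The 10X cells were grouped by the UMIs of genes that are not members. Met cells had at least 3 UMIs of Met, the hepatocyte growth factor receptor (93 cells). Low-Tph2 cells had under 500 CPM (UMIs of a gene scaled to a total of 1000000) of Tph2, the serotonin-synthesising tryptophan hydroxylase (131 cells). The rest were split by at least 3 UMIs of Gad2, which makes GABA, or Slc17a8, the vesicular glutamate transporter VGLUT3: Gad2 cells (872), Slc17a8 cells (684), cells with both (256) and cells with neither (314). The classes are ranges and not types, as 46 cells had 1 or 2 Met UMIs, 246 had 1 or 2 Gad2 UMIs, 341 had 1 or 2 Slc17a8 UMIs, and 21 cells lay within 2-fold below the Tph2 limit and 69 within 2-fold above it. Cells held 12320 to 134079 UMIs, and the class medians were 62061 in Gad2 cells, 63266 in Slc17a8 cells, 46273 in Met cells and 27329 in low-Tph2 cells. Fev was detected in all 2350 cells, and the 6 serotonin neuron markers summed to 9225 to 10212 CPM in the 4 Gad2- and Slc17a8-defined classes, to 5243 CPM in Met cells and to 1425 CPM in low-Tph2 cells. Low-Tph2 cells also had 930 CPM of 11 immediate early genes against 265 to 311 CPM in the other classes, and 69.2 CPM of oligodendrocyte markers against 28.2 to 40.2. The part of these differences in the results for low-Tph2 cells was not tested. Met and low-Tph2 cells also carried Slc17a8, at 296 and 455 CPM, against 333 CPM in Slc17a8 cells and 5.39 CPM in Gad2 cells. Their ratios against all other cells therefore include differences between Slc17a8-bearing and Gad2 cells. Intervals in brackets are 95% intervals of the counts, and they cover counting error only.

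The letters TGACG, the core of the cyclic AMP response element, were looked for on both strands in promoter windows of 300 bases, 250 before and 50 after the transcription start, from RefSeq on GRCm38.p6, the same build as the files' mm10. They stood in 22 of 99 windows of the 61 members with a window (22.2%) and in 20.8% of 32851 windows of all genes, and the full palindrome TGACGTCA in 0 of the 99 and in 1.79% of all. These shares lay close together, and a match describes letters and not a bound site. The 250 bases before the start are given for the 5 members past 2-fold in low-Tph2 cells that have a single listed window: Rgs2 (chr1:144004150-144004399, minus strand), Rgs4 (chr1:169747643-169747892, minus strand), Rgs10 (chr7:128418173-128418422, minus strand), Adcy9 (chr16:4420499-4420748, minus strand) and Pde8a (chr7:81213015-81213264, plus strand). The sequences read 5′ to 3′ along the gene, and capitals mark the 5 letters in either orientation.
Rgs2: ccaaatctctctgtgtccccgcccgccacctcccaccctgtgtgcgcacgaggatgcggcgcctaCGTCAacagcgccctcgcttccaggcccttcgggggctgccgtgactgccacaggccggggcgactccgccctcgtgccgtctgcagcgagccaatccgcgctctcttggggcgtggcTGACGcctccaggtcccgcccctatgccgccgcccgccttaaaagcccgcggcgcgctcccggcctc
Rgs4: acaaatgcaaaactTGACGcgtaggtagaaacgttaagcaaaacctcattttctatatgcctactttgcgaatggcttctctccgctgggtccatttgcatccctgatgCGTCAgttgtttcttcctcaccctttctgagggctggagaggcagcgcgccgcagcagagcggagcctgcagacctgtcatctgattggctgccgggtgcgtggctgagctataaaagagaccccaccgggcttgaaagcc
Rgs10: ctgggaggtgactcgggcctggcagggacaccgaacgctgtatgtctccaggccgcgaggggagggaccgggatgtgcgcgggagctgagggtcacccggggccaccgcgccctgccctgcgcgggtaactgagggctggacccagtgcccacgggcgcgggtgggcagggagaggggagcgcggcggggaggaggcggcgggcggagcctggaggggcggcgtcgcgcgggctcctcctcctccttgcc
Adcy9: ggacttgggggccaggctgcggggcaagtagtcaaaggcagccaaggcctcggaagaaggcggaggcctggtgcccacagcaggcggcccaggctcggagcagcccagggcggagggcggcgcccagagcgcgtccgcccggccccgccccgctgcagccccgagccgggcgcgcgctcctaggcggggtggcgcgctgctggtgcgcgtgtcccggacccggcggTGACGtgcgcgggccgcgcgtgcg
Pde8a: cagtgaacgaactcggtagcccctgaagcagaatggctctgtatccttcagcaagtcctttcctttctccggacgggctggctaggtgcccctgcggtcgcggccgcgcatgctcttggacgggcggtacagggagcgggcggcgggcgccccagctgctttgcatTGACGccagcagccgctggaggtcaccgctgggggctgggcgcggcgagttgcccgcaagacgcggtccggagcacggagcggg
Rgs2 and Rgs4 each held the letters at 2 places, Adcy9 and Pde8a at 1, and Rgs10 at none. The starts are those of RefSeq and differ from GENCODE for some genes. The Rgs10 window lies inside the GENCODE span of the gene (chr7:128373621-128418758), and the Pde8a window ends before the GENCODE start at 81213596. Bases before those GENCODE starts were not searched. In low-Tph2 cells Rgs2 and Pde8a were lower, and Rgs4, Rgs10 and Adcy9 were higher.

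Levels of the 79 members over all 10X cells spanned from 0.0959 CPM for Rgs9bp to 5023 CPM for Gnas. UMI counts do not depend on transcript length, but the capture of 3′ ends can differ by gene, so the order of genes and their family shares describe these libraries. In the manual cells, for example, Gnb5 had reads in all 70 cells although it had a UMI in 18.7% of 10X cells. A UMI was found in at least 90% of cells for 22 members, and 5 (Gnas, Gnao1, Gnb1, Gnb2 and Gng3) had one in every one of the 2350 cells. For 16 members it was under 10% of cells. Of the 79 members 55 reached the level minimum of 5 CPM used for counts below, the nearest being Gng7 at 5.03 CPM inside and Pde9a at 4.99 CPM and Pde5a at 4.78 CPM outside.

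Gnas (chr2:174284320-174346744), which encodes G alpha s and other imprinted products that share its last exons, gave 71.7% of all G alpha UMIs. It was followed by the inhibitory subunits Gnao1 (546 CPM), Gnai1 (381 CPM) and Gnai2 (366 CPM), the phospholipase-coupled Gna11 (215 CPM) and Gnaq (202 CPM), and Gnaz (144 CPM). Gnal, the olfactory and striatal G alpha olf, stood at 65.4 CPM. Gnas did not lead in the reads of the manual cells, which also depend on transcript length. Its mean there was 221 CPM, below Gnao1 (330 CPM), Gnai2 (306 CPM) and Gnai1 (273 CPM). The lead of Gnas thus holds for UMIs only, and the cause of this difference was not tested. The G beta family was led by Gnb1 (chr4:155491361-155559269, 659 CPM, 66.1% of G beta UMIs) and Gnb2 (295 CPM, 29.5%). Gng3 (chr19:8836933-8839194, 791 CPM, 53%), a neuronal gamma subunit, led the G gamma family with Gng2 (337 CPM). Family sums for G beta and G gamma moved little between classes: G beta lay between 872 CPM [843 to 903] in low-Tph2 cells and 1023 CPM [1014 to 1033] in Slc17a8 cells, and G gamma between 1252 CPM and 1536 CPM. G alpha was lowest in low-Tph2 cells (5408 CPM) and Met cells (5860 CPM) and highest in Gad2 cells (7420 CPM), and Gnas went from 3746 CPM in Met cells to 5329 CPM in cells with neither marker.

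Among the RGS genes Rgs2 (chr1:143999338-144004161), which acts preferentially on G alpha q, had 238 CPM and 31.3% of the family's UMIs. Rgs17, an RZ-type member, had 204 CPM (26.8%) and Rgs10 (chr7:128373621-128418758), a small member that acts on G alpha i, 115 CPM (15.1%). The adenylyl cyclases were low, 192 CPM [190 to 194] for all 9 together. Adcy5 (58.8 CPM), which G alpha i inhibits, Adcy2 (51.8 CPM), which beta-gamma stimulates, and Adcy3 (37.4 CPM) were the main isoforms. The phosphodiesterases were led by Pde2a (chr7:101421691-101512827, 200 CPM), a cyclic GMP-stimulated enzyme of dual specificity, by the calcium/calmodulin-stimulated Pde1a (chr2:79834453-80129458, 150 CPM) and by Pde10a (132 CPM). RGS and phosphodiesterase sums were near each other over all cells (761 and 762 CPM) but ran in opposite order in 2 classes: Gad2 cells had 653 CPM of RGS and 856 CPM of phosphodiesterase UMIs, and Slc17a8 cells 870 and 660 CPM.

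**Figure D1:**
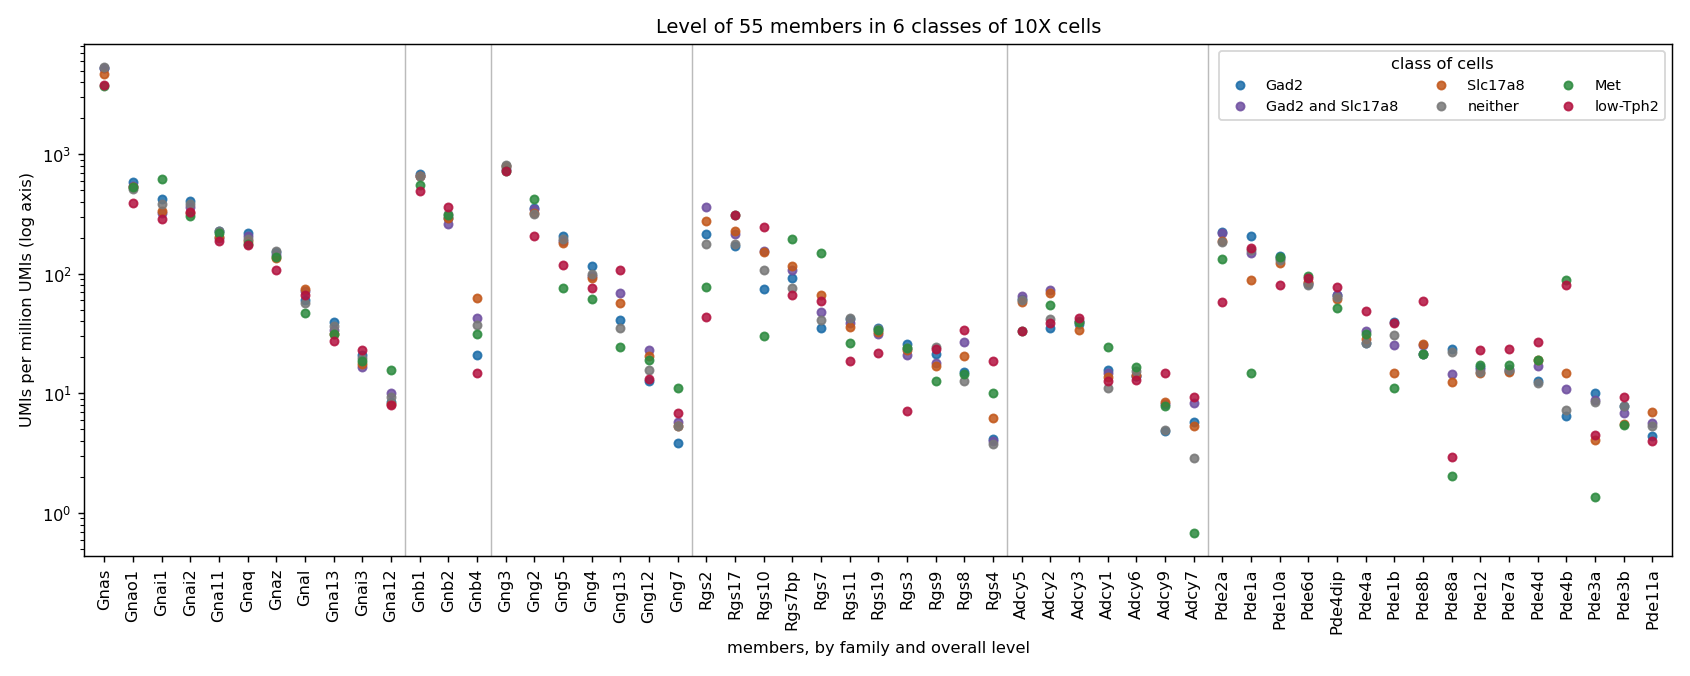
Level of the 55 members with at least 5 CPM over all cells, in CPM on a log axis, ordered by family and overall level. Each point is the summed level in 1 of 6 classes of 10X cells, and a class with 0 UMIs has no point (Pde11a in Met cells). Points lie close together for the leading G protein genes and apart for Gnb4, Rgs2, Pde1a, Pde8a and Pde4b.

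**Figure D2:**
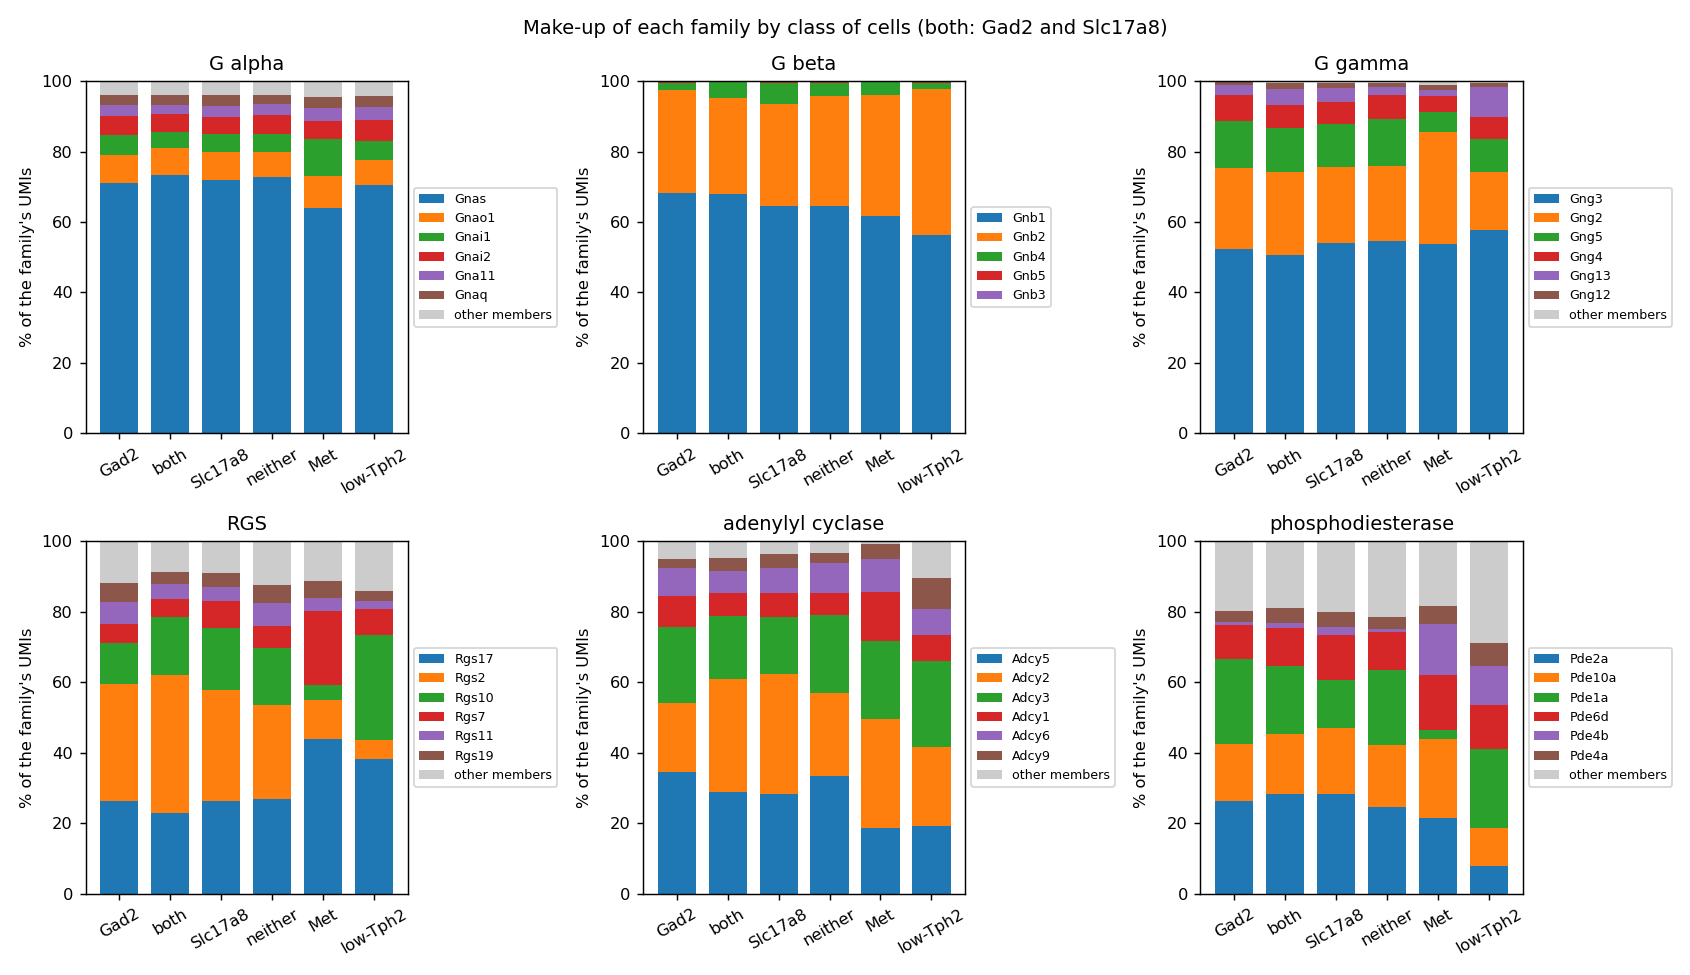
Share of each family's UMIs, in percent, given by its 6 leading genes in each class of 10X cells. Gnas gave 63.9% to 73.5% of G alpha UMIs in every class, while Rgs2 fell from 39% of RGS UMIs in cells with both markers to 11% in Met cells and 5.3% in low-Tph2 cells, and Pde1a was 2.42% of phosphodiesterase UMIs in Met cells against 13.6% to 24.1% elsewhere.

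Met cells were compared with all other cells to ask how the signalling genes of this small class differ. Of 55 members at the level minimum, 3 were 2-fold higher, against 1.99% of all 9914 genes at that minimum, and 10 were 2-fold lower, against 7.19% of all genes, which is 5.45% and 18.2% of the members. The median log2 ratio was -0.07 over the members and 0.05 over all genes. Mural cell markers summed to 13.7 CPM in Met cells and 0 to 0.321 CPM in the other classes, from 60 UMIs in 2 of the 93 cells. Without all cells holding a UMI of a mural, endothelial or microglial marker the counts were again 3 and 10. Gng7, 1 of the 3 higher members, met the minimum only through Met cells, as did 14 of the 197 higher genes overall. The largest rise among the 55 members was that of a phosphodiesterase. Pde4b (chr4:102087543-102607259), a cyclic AMP-specific enzyme, had 88.7 CPM [80.1 to 98] in Met cells and 11.9 CPM in the others, a log2 ratio of 2.90 [2.73 to 3.06]. It was detected in 91 of 93 Met cells, with 30.4, 90 and 159 CPM at the 10th, 50th and 90th percentile of cells, where the median Gad2 cell had 0 CPM. The difference was thus spread over nearly all Met cells.

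The other 5 phosphodiesterases past 2-fold were lower in Met cells. Pde1a went from 155 to 14.9 CPM, a log2 ratio of -3.38 [-3.75 to -3.03], and had a UMI in 20 of 93 Met cells (21.5%, 9.89% after thinning every cell to 20000 UMIs) but in 98.2% of Gad2 cells (94.2% thinned). Its relative Pde1b (chr15:103503034-103530052) went from 28.7 to 11.2 CPM, a log2 ratio of -1.36 [-1.79 to -0.95]. In Slc17a8 cells Pde1b had 14 CPM in barcode set 2 and 16.6 CPM in set 1, and in Gad2 cells 36 and 45.5 CPM. Met cells thus lay nearer to Slc17a8 cells than this ratio shows. Pde8a, a high-affinity cyclic AMP enzyme, had 9 UMIs in all Met cells, 2.06 CPM against 18 CPM (-3.13 [-4.26 to -2.20]), and Pde3a, which cyclic GMP inhibits, had 6, 1.37 CPM against 7.65 CPM (-2.48 [-3.93 to -1.35]). Pde11a, of dual specificity, had 0 UMIs in 93 Met cells against 5.5 CPM elsewhere, at least 8.02-fold lower at a floor of 3 counts in the class. After thinning to 20000 UMIs the same floor no longer allows a difference of 2-fold. Pde2a and Pde10a stayed nearer to the rest, with 132 and 138 CPM in Met cells.

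Among the RGS genes Rgs7 (chr1:175059087-175492500), of the R7 group that pairs with G beta 5, was 3.07-fold higher in Met cells, 149 against 48.5 CPM (log2 ratio 1.62 [1.5 to 1.73]), and its membrane anchor Rgs7bp was 1.97-fold higher, 196 against 99.6 CPM (0.98 [0.88 to 1.08]), just short of 2-fold. Rgs2 was 3.15-fold lower, 77.5 against 244 CPM (-1.65 [-1.81 to -1.5]), and Rgs10 3.88-fold lower, 30.4 against 118 CPM (-1.96 [-2.21 to -1.71]). Rgs17 had 309 CPM in Met cells against 200.2 CPM in the others (0.63 [0.55 to 0.71]), and gave 43.8% of RGS UMIs in Met cells and 26.8% over all cells.

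Of the G protein genes at the level minimum, 3 gamma subunits were past 2-fold in Met cells. Gng7, a gamma subunit known to pair with G alpha olf in striatum, was higher (11.2 against 4.83 CPM, 1.21 [0.76 to 1.63]), and Gng5 (76.6 against 192 CPM, -1.32 [-1.48 to -1.17]) and Gng13 (24.5 against 50.9 CPM, -1.06 [-1.35 to -0.78]) were lower. Gnai1 had 618 CPM [595 to 642] in Met cells and 288 to 423 CPM in the other classes, under 2-fold above the rest. Of the cyclases Adcy7 was lower, on only 3 UMIs in Met cells (0.686 against 5.71 CPM, ratio interval -5.34 to -1.51), and Adcy5 was 1.8-fold lower (33.1 against 59.6 CPM). Under the level minimum, 2 named members reached 10 CPM in Met cells. Gna14 (chr19:16435762-16610820), a G alpha q relative, had 16.5 CPM [12.9 to 20.7] there and 2.76 CPM elsewhere, with a UMI in 42 of 93 Met cells and in 0 of 131 low-Tph2 cells, and Pde9a, specific for cyclic GMP, had 14.4 CPM [11.1 to 18.4] against 4.68 CPM.

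The low-Tph2 cells were compared with the rest in the same way. Here 6 members were 2-fold higher, against 5.16% of all genes, and 6 were 2-fold lower, against 4.14%, each being 10.9% of the 55 members. Rgs4, 1 of the 6 higher, met the minimum only through low-Tph2 cells, as did 20 of the 512 higher genes overall. All genes together stood 0.16 log2 units higher in these cells at the median and the members -0.16, and after centring on the median of all genes 4 members were 2-fold higher (7.27%, against 3.34% of all genes) and 6 lower (10.9%, against 5.37%), with Gng13 (0.99) and Rgs10 (0.97) no longer passing. Of members at the level minimum Pde4b was again the most elevated, 80.7 CPM [71.8 to 90.3] against 12.5 CPM (log2 ratio 2.69 [2.51 to 2.87]), in 107 of 131 cells. Pde8b (chr13:95024454-95250336) was higher, 59.4 against 23.3 CPM (1.35 [1.15 to 1.55]), while its close relative Pde8a was lower, 2.93 against 17.9 CPM (-2.61 [-3.61 to -1.77]). Pde2a was 3.49-fold lower, 58.3 against 204 CPM (-1.80 [-2.0 to -1.61]). In contrast to Met cells, Pde1a was retained at 165 CPM.

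RGS genes moved both ways in low-Tph2 cells. Rgs2 had 43.1 CPM [36.7 to 50.3] against 244 CPM in the rest (-2.50 [-2.73 to -2.28]), and Rgs3 had 7.19 against 24.1 CPM (-1.74 [-2.35 to -1.20]). Rgs11, of the R7 group, was 2.09-fold lower (18.6 against 39 CPM). Rgs4 (chr1:169741477-169747642), which acts on G alpha i and q, was higher, 18.6 against 4.94 CPM (1.92 [1.54 to 2.27]), in 36 of 131 cells, and Rgs10 had 244 against 111 CPM (1.13 [1.03 to 1.23], or 0.97 after centring). In Slc17a8 cells Rgs10 had 150 CPM in barcode set 2 and 153 CPM in set 1, nearer to low-Tph2 cells. Rgs12 reached 10.1 CPM [7.16 to 13.9] from 3.84 CPM. Chosen after their values were seen, Rgs6 and Rgs20 lay under the level minimum but stood apart: Rgs6 had 32 of its 73 UMIs in 16 low-Tph2 cells (8.52 CPM against 0.311 CPM) and Rgs20 8.79 CPM [6.05 to 12.3] against 1.61 CPM.

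Of the other families, Gng13 (chr17:25717171-25719406), a gamma subunit known from sensory cells, was 2.22-fold higher in low-Tph2 cells, 108 against 48.4 CPM (1.15 [1.00 to 1.30]), and Adcy9, a forskolin-insensitive cyclase, 2.28-fold higher, 14.9 against 6.53 CPM (1.19 [0.78 to 1.58]). In Slc17a8 cells Gng13 had 68.4 CPM in barcode set 2 and 34.4 CPM in set 1. Gnb4 was lower in low-Tph2 cells, 14.9 against 39.2 CPM (-1.39 [-1.80 to -1.01]). Gnb2 and Gnb1 came closer together than elsewhere, Gnb2 with 362 CPM and 41.4% of G beta UMIs and Gnb1 with 492 CPM and 56.4%.

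Gad2 cells were then compared with Slc17a8 cells, the 2 largest classes. Between them 3 members were 2-fold higher in Gad2 cells, against 1.88% of all genes, and 3 were 2-fold lower, against 1.98%, each being 5.45% of the 55 members. Median log2 ratios were 0.09 for the members and 0.01 for all genes. All 3 higher members were phosphodiesterases: Pde1b with 39.3 CPM [37.6 to 41] against 14.8 CPM [13.7 to 16.1] (log2 ratio 1.40 [1.28 to 1.54]), Pde3a with 10.1 against 4.06 CPM (1.31 [1.06 to 1.57]) and Pde1a with 206 against 89.5 CPM (1.20 [1.15 to 1.26]). Cells with both markers had levels between these for each of the 3 (25.3, 8.87 and 149 CPM). Pde5a (chr3:122728947-122859374), the cyclic GMP-specific enzyme, lay just under the level minimum and was singled out after its values were seen: it had 8.62 CPM [7.85 to 9.44] in Gad2 cells and 0.499 CPM [0.309 to 0.762] in Slc17a8 cells (4.11 [3.48 to 4.82]). It had a UMI in 30.4% of Gad2 cells, 2.19% of Slc17a8 cells and 0 of 93 Met cells (exact interval up to 3.89%), and after thinning in 13.9% of Gad2 and 0.295% of Slc17a8 cells. The share in Slc17a8 cells, at a median depth of 63266 UMIs, is an upper limit to the background from free RNA for this gene.

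The 3 members lower in Gad2 cells were Gnb4 (chr3:32580332-32616585), a less abundant G beta, with 21 CPM [19.8 to 22.3] against 62.5 CPM [60.1 to 64.9] (-1.57 [-1.67 to -1.47]), Pde4b with 6.42 against 14.8 CPM (-1.21 [-1.40 to -1.01]) and Rgs10 with 75.2 against 151 CPM (-1.01 [-1.06 to -0.95]). Gnb4 was 6.1% of G beta UMIs in Slc17a8 cells and 2.1% in Gad2 cells. Adcy2 (chr13:68620043-68999541) stopped just short of 2-fold, 35 against 69.3 CPM (-0.98 [-1.07 to -0.90]), and gave 33.9% of cyclase UMIs in Slc17a8 cells and 19.7% in Gad2 cells, where Adcy5 led with 34.4%. Rgs10 was uneven within each class, with 0, 75.7 and 475 CPM at the 10th, 50th and 90th percentile of Slc17a8 cells and 0, 11.2 and 250 CPM of Gad2 cells. Microglia, brain macrophages, also express Rgs10, and their 5 markers summed to 4.65 CPM in Slc17a8 cells and 0.638 CPM in Gad2 cells. A microglial UMI was found in 1.97% of cells with Rgs10 and in 2.55% of cells without. Without the 156 cells that held a UMI of a microglial, endothelial or mural marker the log2 ratio of Rgs10 was -1.01, as before, and with cells thinned to 20000 UMIs it was -0.79, short of 2-fold.

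**Figure D3:**
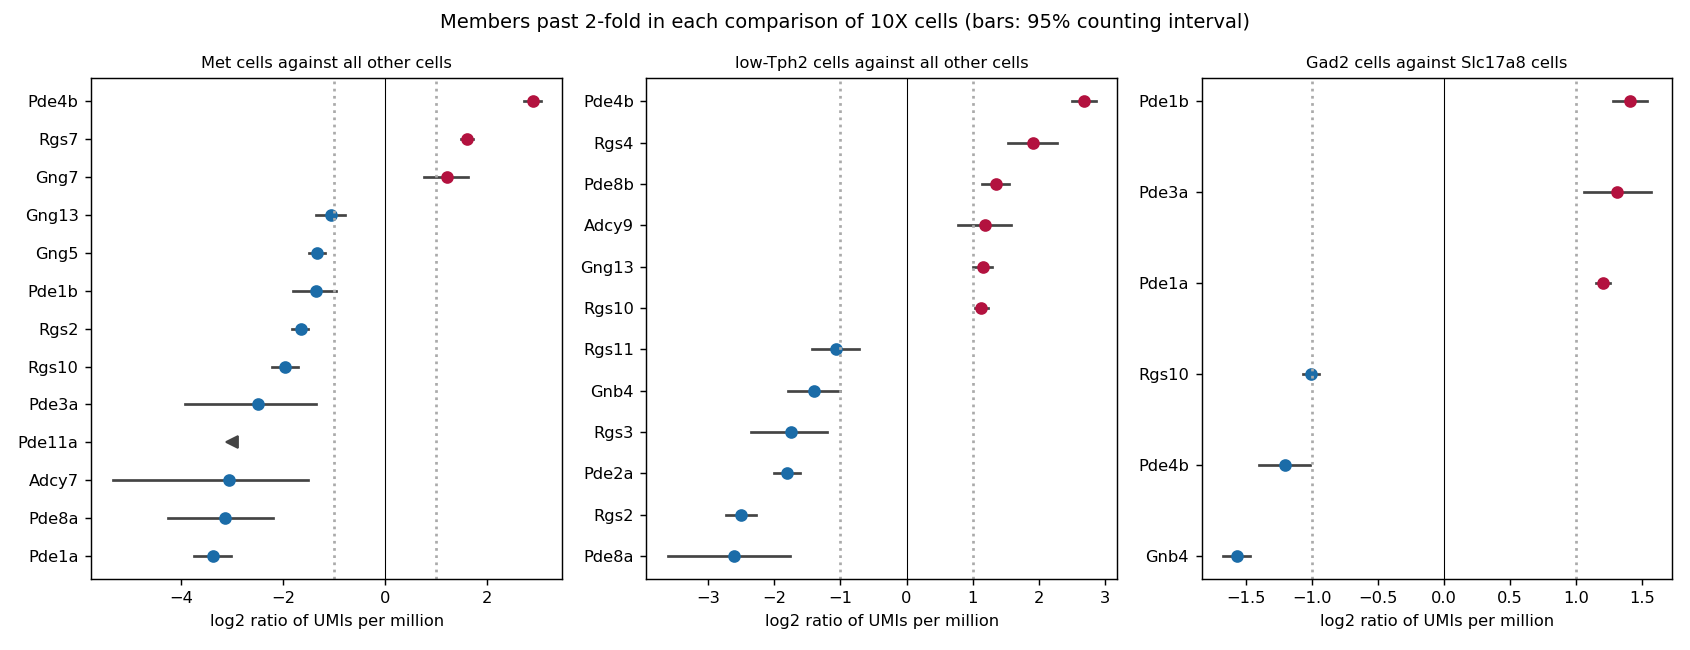
Log2 ratio of summed CPM for every member past 2-fold in each of 3 comparisons of 10X cells, with the 95% counting interval as a bar and dotted lines at 2-fold. The triangle marks Pde11a in Met cells, which had 0 UMIs and is drawn at its floor of 3 counts. Pde4b is at the top of the first and second panels and Pde1a at the bottom of the first.

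Each comparison was repeated within each barcode set, and every call had the same direction in both. The calls had been made on the sum of the 2 sets, so such agreement is largely built in. The share of all called genes that agree is not given, so the counts are no result about the members. Past 2-fold in both sets were 3 of the 3 members called higher and 9 of the 10 called lower in Met cells. For low-Tph2 cells these were 5 of 6 in each direction, and for Gad2 against Slc17a8 cells 3 of 3 higher and 2 of 3 lower. The exceptions were Gng13 in Met cells (-1.64 in set 1 and -0.89 in set 2), Rgs10 (1.73 and 0.52) and Rgs11 (-1.48 and -0.79) in low-Tph2 cells, and Rgs10 in Gad2 cells (-1.23 and -0.90). Pde4b in Met cells gave 3.13 and 2.74, and Pde1a -3.82 and -3.18. Below the level minimum Gna14 in Met cells was less even, 5.47 against 2.75 CPM in set 1 and 23.1 against 2.76 CPM in set 2.

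**Figure D4:**
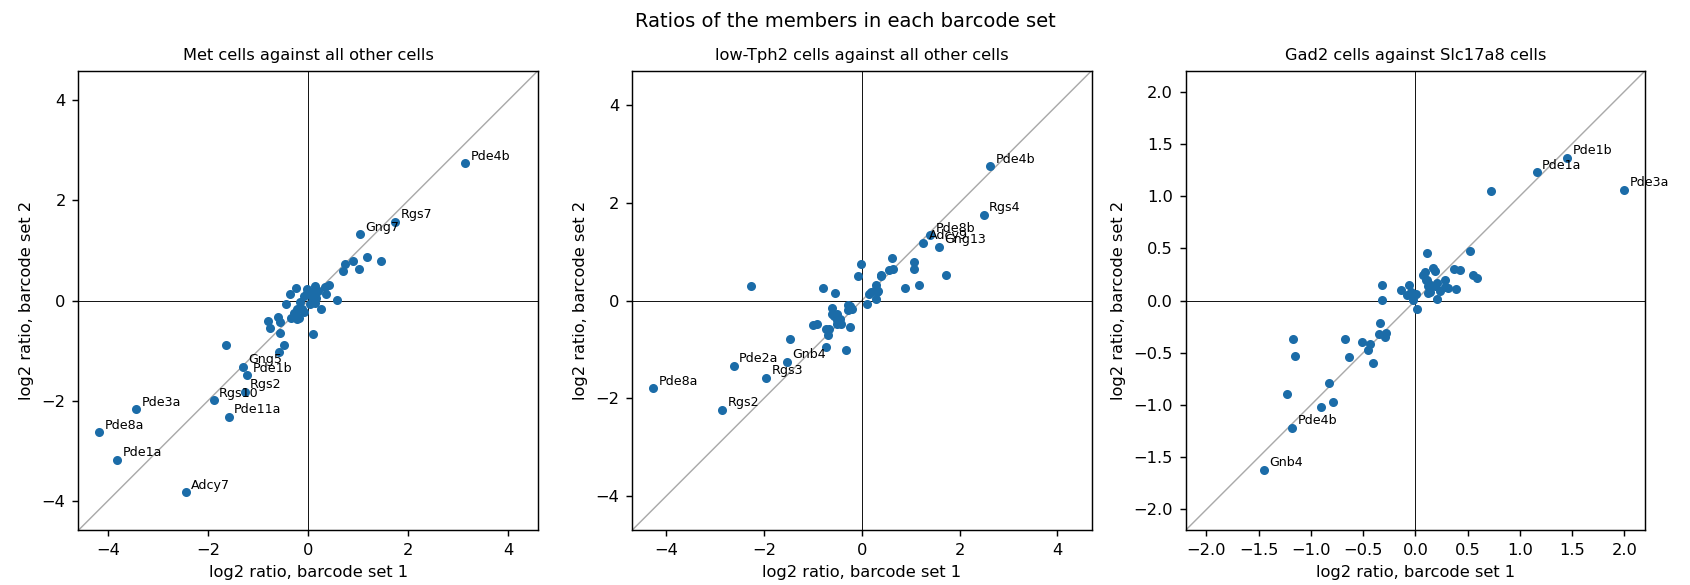
Log2 ratios of the 55 members in barcode set 1 (x axis) and barcode set 2 (y axis) for 3 comparisons of 10X cells, with the line of equal values in grey and names on members past 2-fold in both. The 2 sets share no cells, and Pde4b, Pde1a, Rgs2 and Gnb4 lie in the same quadrant in both sets in the panels that name them.

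Between the barcode sets themselves 0 of 55 members differed by 2-fold, where 0.313% of all genes were 2-fold higher in set 2 and 0.353% lower. No label ties a set to a run, so whether the sets differ in genotype, age or preparation is not known. The largest ratios at the level minimum were for Gng13, 60.1 CPM in set 2 and 31.5 CPM in set 1 (log2 ratio 0.93 [0.85 to 1.02]), Rgs4, 6.29 and 3.54 CPM (0.83 [0.58 to 1.09]), and Gng12, 19.4 and 12.8 CPM (0.59 [0.46 to 0.73]). Gnb1 was lower in set 2, 575 against 815 CPM (-0.50 [-0.52 to -0.49]), as were Rgs11 (-0.52 [-0.60 to -0.44]) and Pde8a (-0.46 [-0.58 to -0.34]). The Gnb1 ratio lay between -0.57 and -0.44 in all 6 classes, and the Gng13 ratio between 0.51 and 1.67. Rgs5, a marker of pericytes, had 171 of its 181 UMIs in 5 cells. Of the 15 cells with Rgs5, 3 held a UMI of another mural marker and 5 of an endothelial marker (33.3%, against 3.51% of the other cells), so its levels by class were not read. Gng11, with 90 UMIs in 45 cells, of which 6 held an endothelial marker, was treated in the same way.

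The manually sorted cells were sequenced over full-length cDNA, to 756872 to 7664103 reads on genes per cell, so a gene's reads also depend on its length and only the same gene is compared here. Reads were found in all 70 cells for 12 members and in none for Rgs5. Detection differed between the tables for a few members: Gnb5, the partner of the R7 RGS proteins, had reads in 70 of 70 manual cells and a UMI in 440 of 2350 10X cells (18.7%), and Gng10 in 65 of 70 and in 65 of 2350 cells (2.77%). Pde2a, which led the phosphodiesterases in UMIs, had reads in 50 of 70 manual cells with a median of 3.13 CPM. Tph2, Fev and Slc6a4 had reads in all 70 cells.

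P2ry1 cells of the caudal DR were set against Sert cells of the same region to ask which members mark the P2ry1 neurons. Only 1 of the 10 P2ry1 cells was of day 63, the age of all 6 Sert caudal cells, so group and age can hardly be told apart. Met itself had reads in 9 of 10 P2ry1 cells and in 0 of 6 Sert caudal cells. Of 49 members with a mean of at least 10 CPM, 6 were at least 1 log2 unit higher in P2ry1 cells (12.2%, against 9.58% of all 8886 genes tested) and 20 lower (40.8%, against 34.3%), on the scale of mean log2(CPM + 1). All genes had a median difference of -0.46 and the members of -0.61, and P2ry1 cells had fewer genes with reads (median 7947 against 9269). After centring on the median of all genes 11 members were higher and 11 lower, each being 22.4% of the members, against 18.8% and 22.4% of all genes. Markers of other cells moved with this contrast: the 5 oligodendrocyte markers summed to 0 to 85.8 CPM (median 0) in P2ry1 cells and 0.279 to 268 CPM (median 43.4) in Sert caudal cells, and the 5 astrocyte markers to 0 to 53.6 CPM (median 0) and 0 to 202 CPM (median 27.2). The 11 immediate early genes summed to medians of 95.3 and 120 CPM, with a median above 0 for 1 gene in P2ry1 cells and 7 in Sert caudal cells. The part of these in the differences was not tested. In 0 members were the 2 groups free of overlap, where 1.14% of all genes were.

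Pde4b had the largest difference. Its level in the 10 P2ry1 cells ran from 45 to 238 CPM with a median of 122, and in the 6 Sert caudal cells from 0 to 84.4 CPM with a median of 14.6, a difference of 3.77 log2 units. All 10 P2ry1 cells had reads, and the other 7 groups had medians from 0 to 14.6 CPM. Rgs7 ran from 37.3 to 447 CPM (median 195) in P2ry1 cells and from 0 to 209 CPM (median 75.2) in Sert caudal cells (1.91), and Rgs17 from 118 to 632 CPM (median 342) against 35.8 to 164 CPM (median 120) (1.77). P2ry1 cells had the highest median of the 8 groups for all 3 genes, though single cells of other groups reached into their range. Rgs19 (median 155 against 43.9 CPM, 2.40) and Gna14 (7 of 10 cells, median 34.3 CPM, against 2 of 6 cells, median 0 CPM, 2.38) were also higher, and so was Adcy2 (1.28).

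Rgs10 had reads in 3 of 10 P2ry1 cells, up to 24.9 CPM, and in all 6 Sert caudal cells, from 9.5 to 56.2 CPM with a median of 30.1 (-3.41). Pde1a had reads in 1 of 10 P2ry1 cells and in 3 of 6 Sert caudal cells, both low beside the medians of 102 to 294 CPM in the other 6 groups. Pde1b had reads in 3 of 10 cells against 4 of 6 (-2.05), and Gng5 a median of 4.34 CPM against 25.2 CPM (-2.45), the lowest of the 8 groups. Rgs9 (-2.86), Gnb4 (-2.49) and Pde4a (-2.47) completed the most different. Of the 13 members past 2-fold in 10X Met cells, 9 were also at the manual level minimum, and all 9 had the same sign in P2ry1 cells (2 higher and 7 lower). Over all genes past 2-fold in Met cells the same sign was found for 81.3% of the higher and 88.4% of the lower genes. The 9 members are too few to set apart from these shares. Of the 4 members under the manual minimum, Gng7 was lower in P2ry1 cells (-0.80) although higher in Met cells, and Pde3a had a difference of 0. Pde9a, under the 10X level minimum and higher in Met cells, was also lower in P2ry1 cells (-1.01).

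The Sert cells of the dorsolateral and the ventromedial DR were the other manual comparison. Here 7 members were at least 1 log2 unit higher in dorsolateral cells (14.3%, against 11% of all genes) and 15 lower (30.6%, against 19.1%), with medians of -0.36 for the members and -0.09 for all genes. No member separated the groups without overlap (0.045% of all genes did). Both groups hold cells of days 63 and 90, and the difference is given for each age.

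Pde1a ran from 73.3 to 623 CPM (median 120) in 10 dorsolateral cells and from 0 to 387 CPM (median 102) in 8 ventromedial cells, a difference of 2.12 that was 3.11 at day 63 and 1.12 at day 90. On the median of cells the difference was 0.25, and 2 of the 8 ventromedial cells had no reads. Pde1b ran from 19.7 to 174 CPM (median 85.2) against 0 to 139 CPM (median 33.3), a difference of 1.68 (2.48 at day 63 and 0.88 at day 90). Gnai3 (median 31.3 against 0.397 CPM, 2.32, with 2.83 at day 63 and 1.81 at day 90) and Gna13 (16.2 against 8.63 CPM, 1.30, with 1.1 and 1.5), widely expressed G alpha subunits, were also higher in dorsolateral cells. Gna14 had reads in 4 of 10 dorsolateral cells and 0 of 8 ventromedial cells, both with a median of 0 CPM (1.49 at day 63 and 2.54 at day 90). Rgs2 had medians of 277 and 115 CPM (1.12), a difference of 0.79 at day 63 and 1.46 at day 90.

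Lower in dorsolateral cells were Adcy2, from 0 to 117 CPM (median 21.4) against 28.1 to 673 CPM (median 95.4) in ventromedial cells (-2.98, and -3.61 at day 63 and -2.35 at day 90), and Gnb4, with reads in 5 of 10 against 7 of 8 cells and medians of 11 and 71.6 CPM (-2.82, with -1.96 at day 63 and -3.68 at day 90). Rgs10 had reads in 3 of 10 dorsolateral and 7 of 8 ventromedial cells (-2.92), but the difference was -0.99 at day 63 and -4.85 at day 90. Pde4d had reads in 4 of 10 and 7 of 8 cells (-2.95, with -2.41 at day 63 and -3.49 at day 90), and Rgs7 medians of 42.1 and 95.8 CPM (-1.93, with -1.35 and -2.52). Gad2 had a median of 51.4 CPM in dorsolateral and 0 CPM in ventromedial cells, and Slc17a8 of 0 and 287 CPM. The 2 groups thus differ in the markers that define the 10X classes.

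Over the 8 manual groups the median of Rgs10 was 200 CPM in Npy2r cells of the caudal DR, where all 10 cells lay between 46.2 and 678 CPM, then 38.3 CPM in ventromedial Sert cells, 37.7 CPM in Npy2r cells of the rostral DR and 30.1 CPM in caudal Sert cells. It was 11.2 CPM in dorsomedial Sert cells, 4.88 CPM in Crh cells, and 0 CPM in dorsolateral Sert and P2ry1 cells. The range of the caudal Npy2r cells overlapped that of every other group except P2ry1 cells, whose highest value was 24.9 CPM. The share of all genes free of overlap between caudal Npy2r and P2ry1 cells is not given. Rgs2 had its highest median in Npy2r cells of the rostral DR (612 CPM, range 140 to 1719) and its lowest in ventromedial Sert cells (115 CPM, range 80.4 to 364). Pde5a had reads in 5 of 10 dorsolateral and 3 of 9 dorsomedial Sert cells, up to 227 and 29.6 CPM, in 1 rostral Npy2r cell at 0.384 CPM, and in no cell of the other 5 groups. The caudal and rostral Npy2r groups hold the same ages, days 77 and 87, and the dorsolateral, dorsomedial and ventromedial Sert groups hold the same ages too. The ages of Crh and Npy2r cells are not found in the Sert or P2ry1 groups, so there group and age cannot be told apart.

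**Figure D5:**
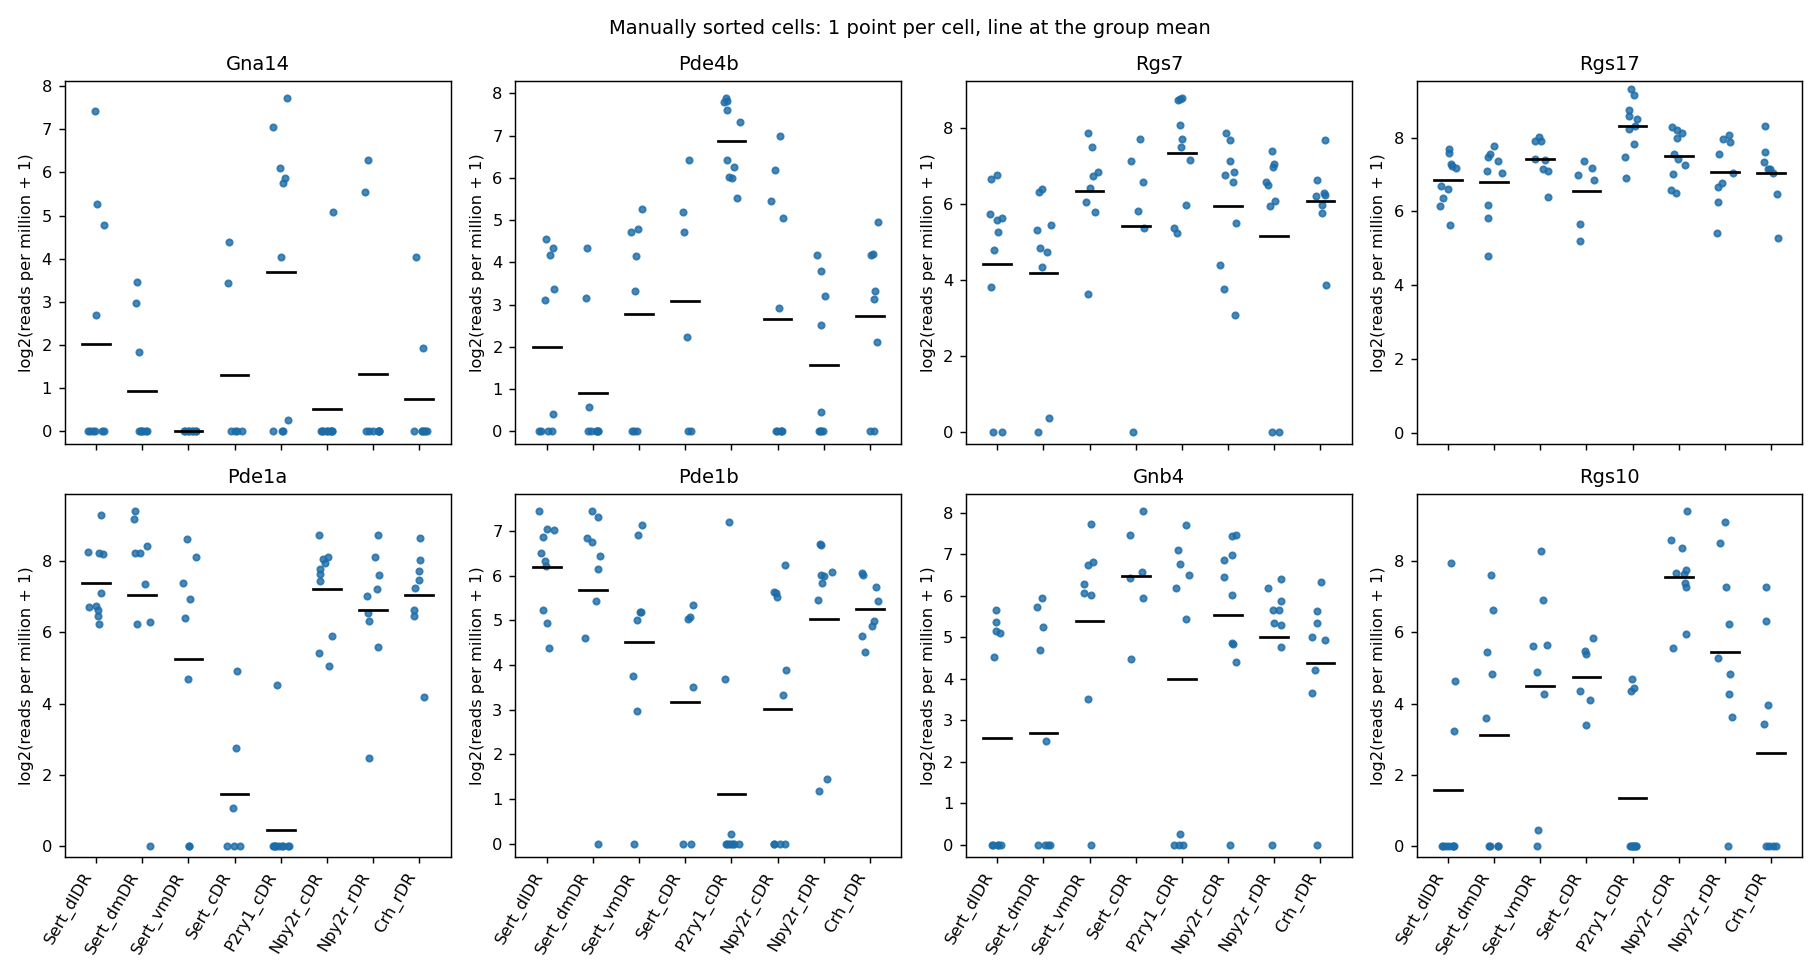
Log2(CPM + 1) of 8 members in 70 manually sorted cells, 1 point per cell and a line at the mean of each of 8 groups. All 10 P2ry1 cells lie above 5 for Pde4b, all 10 caudal Npy2r cells above 5 for Rgs10, and 9 of 10 P2ry1 cells at 0 for Pde1a.

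The genes around the members in the pathway were read from a list of 86, of which 79 were in the 10X table and 56 at the level minimum. In Met cells 4 of the 56 were 2-fold higher and 15 lower, in low-Tph2 cells 7 higher and 9 lower, and between Gad2 and Slc17a8 cells 5 higher and 6 lower. Over all genes these shares were 1.99% and 7.19%, 5.16% and 4.14%, and 1.88% and 1.98%. Receptors accounted for most of the lower genes in Met cells, with 6 of 10 that couple to G alpha i/o, 1 of 3 to G alpha s and 4 of 7 to G alpha q. The list holds receptors that the authors had reported, from these same cells, as lacking in the Met cluster (Htr1b, Htr1d, Hcrtr1, Hcrtr2, Hrh1, Hrh3). It also holds some reported as enriched there (Oprm1, P2ry1, Rxfp1, Tacr3). The shares of receptors called were thus partly known beforehand and are no finding about receptors. Rxfp1 and Rapgef4 in Met cells, and Htr2c, Rapgef4 and Prkg1 in low-Tph2 cells, met the level minimum only through the class where they were higher. The minimum also leaves out genes that are high only in a small class: among the receptors under it Tacr3 (47.8 CPM in Met cells, log2 ratio 5.94), P2ry1 (56 CPM, 4.42) and Oprm1 (18.3 CPM, 4.01), named after their values were seen, were higher in Met cells. Htr1b, the terminal 5-HT autoreceptor, had 3.2 CPM in Met cells and 56.8 to 87.7 CPM in the 4 Gad2- and Slc17a8-defined classes, with 17.8 CPM in low-Tph2 cells (log2 ratio against all other cells -4.47 [-5.35 to -3.73]). The orexin receptor Hcrtr1 had 3.43 CPM against 33.5 to 106 CPM in the same 4 classes and 10.9 CPM in low-Tph2 cells (-4.34 [-5.17 to -3.61]), while Rxfp1, a relaxin receptor coupled to G alpha s, had 56.2 CPM against 1.48 to 4.73 CPM in those classes and 7.99 CPM in low-Tph2 cells (4.03 [3.80 to 4.25]). Grm5, a metabotropic glutamate receptor coupled to G alpha q, was higher in both Met cells (159 CPM) and low-Tph2 cells (165 CPM) than in the other classes (13.7 to 18.6 CPM). Low-Tph2 cells also had 131 CPM of Htr2c (5.24 [5.05 to 5.42]) and 79.1 CPM of Cnr1 (3.15 [2.96 to 3.33]), and 25.6 CPM of the 5-HT1A autoreceptor gene Htr1a against 88.5 to 97.6 CPM in the 4 Gad2- and Slc17a8-defined classes (-1.83 [-2.14 to -1.55] against all other cells). In Met cells Htr1a had 52.6 CPM (-0.79 [-0.98 to -0.60]).

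Downstream, 0 of 9 genes of protein kinase A subunits and inhibitor peptides, 0 of 5 receptor kinase and arrestin genes and 0 of 6 genes of CREB and its coactivators were past 2-fold in any of the 3 comparisons, where from 1.88% to 7.19% of all genes were in a given direction. At such shares groups this small can easily hold none, so this sets them apart neither from all genes nor from the rest of the list. Gucy1a3, a subunit of the nitric oxide-stimulated guanylyl cyclase, had 238 CPM in Gad2 cells, 91.8 CPM in Slc17a8 cells (1.37 [1.32 to 1.42]) and 24.2 CPM in Met cells (-2.83 [-3.12 to -2.56]). Rapgef4, which encodes the cyclic AMP sensor Epac2, was higher in Met cells (21.9 CPM, 2.16 [1.84 to 2.48]) and low-Tph2 cells (37 CPM, 3.03 [2.75 to 3.29]) than in the other classes (3.57 to 5.17 CPM). Plcb4 had 448 CPM in Met cells (1.66 [1.60 to 1.73]), and Plcb1 had 36.6 CPM in Slc17a8 cells and 5.48 CPM in Gad2 cells (-2.74 [-2.93 to -2.56]). The GIRK genes Kcnj3 and Kcnj6 were lower in Met cells (-1.65 [-2.15 to -1.18] and -1.49 [-2.08 to -0.97]), and Kcnj9 was 16.7 CPM there (-0.66 [-1.02 to -0.33]).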

How the data were processed

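Droplet libraries were made with the 10X Genomics 3′ kit, and the authors aligned them with Cell Ranger 3.0.2 to mm10 and deposited UMI counts, having removed genes found in few libraries, cells with few genes, low Fev, glial profiles, extreme UMI numbers, or atypical mitochondrial or ribosomal shares, with R 3.5.3 per the submitters' notes. The deposited manual table holds read counts per gene from SMART-Seq v4 libraries aligned with STAR 2.5.4. That kit does not mark strand, so reads of a gene and of an overlapping antisense gene (46 members have one, Gnas and Gng3 among them) cannot be told apart there.

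Counts were summed over the cells of a class and scaled to 1000000 (CPM), with exact Poisson intervals, and ratios with exact conditional binomial intervals, at 95%. A class at 0 was given a floor of 3 counts. Shares of cells carry Clopper-Pearson intervals and were repeated after thinning to 20000 UMIs, which left out 53 cells. A member was counted as different past 2-fold among genes of at least 5 CPM (10X cells), or past 1 unit of mean log2(CPM + 1) among genes of at least 10 CPM (manual cells). No doublet caller was run here, and the authors had removed cells with extreme UMIs. The 2 runs are not separable and animals are not labelled, so no p-value is given. Which manual cells were sequenced on which instrument is not labelled. Coordinates are from GENCODE M21. Ratios and differences were tested on simulated Poisson counts with known folds. The simulated cells had no spread beyond counting error, so this checks the calculation and not its behaviour with the spread of real cells. Python 3.11.15, scipy 1.17.1 and edgeR 4.0.16 (TMM scaling, as an alternative) were used.

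Genes were named by rule: the leading member of each family, up to 5 members in each direction with the largest size in each comparison, up to 3 in each direction between barcode sets, members under the level minimum with at least 10 CPM in a class, members printed for a family's shares, and listed pathway genes past 2-fold in 10X cells. Other members named in a comparison were added after their values were seen. The members, lists and comparisons were chosen with earlier results of these data known.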

Additional observations from a re-analysis of the deposited data

Results flagged for a closer look

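Lone cells within a manual group were looked for in 51 sets of values (the members named in the manual comparisons wherever all cells of a group had reads, and total reads), by the gap of the lowest or highest cell to its neighbour on the log2 scale. Chance alone gives about 1 such set in 20, and 6 were found. The lowest cell stood apart for Pde1a in rostral Npy2r cells (4.6 CPM), for Rgs19 in caudal Npy2r cells (4.58 CPM) and in Crh cells (44.7 CPM), and for Gng5 in ventromedial Sert cells (1.23 CPM) and in rostral Npy2r cells (7.75 CPM). Among P2ry1 cells 1 cell had fewer reads than the rest (3999547). No member named in a 10X comparison had intervals on opposite sides of 0 in the 2 barcode sets, among 24 looked at.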

How the results depend on the processing

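No paired analysis was possible because the labels name no animals and the replicate numbers only name cells. The dorsolateral and ventromedial Sert cells were instead compared within each shared age. Counts of members moved by over 1.5 times mainly with the level minimum. The number of members tested and the share of all genes called are not given beside the counts that follow. These counts describe how the calls move with the setting and are no result about the members. At 1 CPM, 6 members were higher in Met cells, 11 higher and 11 lower in low-Tph2 cells, and 7 higher and 6 lower in Gad2 than in Slc17a8 cells. At 20 CPM, 1 was higher and 6 lower in Met cells and 3 higher in low-Tph2 cells. In barcode set 1 alone 5 were higher in Met cells and 5 lower in Gad2 cells, and with the mean of each cell's CPM 5 were higher in Met cells and 5 higher and 5 lower in Gad2 cells. In P2ry1 cells the number lower was 10 with a pseudocount of 10, 31 with no level minimum and 10 at 50 CPM, and after centring, added after the data were seen, 11 were higher and 11 lower. In dorsolateral Sert cells 4 were higher and 8 lower with a pseudocount of 10, 3 and 7 at 50 CPM, and 4 higher on medians. The other 87 counts recomputed stayed within 1.5 times, and no named ratio or difference took the opposite sign. For named members 416 recomputed values stayed within their counting interval or the spread of cells and 54 did not. Among these was Pde11a in Met cells, whose floor allows a log2 ratio of -3.00 with all UMIs and -0.81 after thinning. Depth limits the low members: a level of 3 counts is 0.686 CPM in Met cells and 0.799 CPM in low-Tph2 cells.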
